A study of Homo sapiens with 4 samples.

Results

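The epidermal growth factor receptor (EGFR) family was examined in cells of the human small cell lung cancer line NCI-H1048. The 10 genes were chosen by symbol: the 4 receptors EGFR, ERBB2, ERBB3 and ERBB4, and the 6 ligands AREG, EREG, TGFA, HBEGF, EPGN and BTC, out of 35979 gene symbols measured. Poly(A) RNA was sequenced in 4 libraries. One library came from cells with a non-targeting guide RNA (gRNA), labelled wild type, 2 from cells labelled COLCA2 knockout, each with a different COLCA2 gRNA, and 1 from cells labelled POU2F3 knockout. The labels do not say whether the cells were pools or clones, whether the COLCA2 libraries came from separate cultures, or when RNA was taken after targeting. The non-targeting library is called the control below, and the others are named by the gene and number of their guide.

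The 4 receptors are cell-surface tyrosine kinases that signal as pairs. EGFR binds a set of growth factors that are made as membrane-anchored precursors and cut loose at the cell surface, among them amphiregulin (AREG), epiregulin (EREG), transforming growth factor alpha (TGFA), heparin-binding EGF-like growth factor (HBEGF), epigen (EPGN) and betacellulin (BTC). ERBB2 has no known soluble ligand and acts as a partner of the others, ERBB3 has a kinase with little activity of its own, and ERBB3 and ERBB4 bind neuregulins. POU2F3 is the transcription factor that defines tuft cells, rare chemosensory epithelial cells, and COLCA2 encodes one of its co-activators.

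The reads assigned to genes numbered 21587741 to 29632382 per library. The values are normalized counts per gene, that is, reads divided by 1 factor per library. POU2F3 had a normalized count of 14602 in the control, 3677 and 2351 with COLCA2 guides 1 and 2, and 1449 with the POU2F3 guide. COLCA2 had 5585, 3119, 3541 and 1393 in the same order. Both targeted genes were thus lower in every library made with a targeting guide. Of the defining markers, SOX9 and AVIL were high in the control at 17848 and 5093, while the tuft channel TRPM5 had at most 3 reads in every library. The sum of 7 tuft cell markers was 39915 in the control and 9639 to 13889 in the others; the targeted gene POU2F3 is one of the 7, and it and SOX9 make up most of the control sum. The sum of 5 neuroendocrine markers was 198 in the control and 90.6 to 94.8 in the others: CHGA had at most 3 reads throughout, SYP had 74.5 against 48.2 to 60.1, and INSM1 118 against 23.8 to 35.3. The sum of 3 fibroblast markers was 1195 in the control and 1132 to 1407 in the others, most of it COL1A1 (1002 to 1186 over the 4 libraries), while PDGFRB had 22.9 in the control against 79.7 to 187 and DCN 35.3 against 34.2 to 61.2. The epithelial marker sum (EPCAM, KRT8, KRT18 and CDH1) was 12082 in the control and 25820 to 37107 in the others, although EPCAM alone was lower there, at 2464 to 3408 against 3986. The part of any of these markers in the results below was not tested.

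Ratios are given against the single control library as log2 of the normalized count plus 1, a scale that shrinks the change of low genes. All of them share that control, and only 1 library had the POU2F3 guide, so differences were called by size (at least 2-fold, with both guides for COLCA2) and not by a test. The spread between the COLCA2 guides is the sole within-group measure of error. Percentages of the control level carry 95% exact intervals that cover counting error only. The expression minimum, a mean of 20 normalized counts over the libraries, was met by 14940 genes in all and by 8 of the 10 genes of the family. EPGN and BTC fell below that minimum.

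Promoter sequences are shown for EGFR and ERBB2, the receptors whose transcript levels differed most between libraries, and for HBEGF, the most abundant ligand. Each is the 250 bases before a RefSeq start site in GRCh38.p14, printed 5′ to 3′ on the strand of the gene. Capitals mark the motifs that were searched on both strands: the octamer ATGCAAAT bound by POU factors, the GC box GGGCGG and the AP-1 motif TGANTCA.
EGFR, chr7:55018767-55019016, plus strand: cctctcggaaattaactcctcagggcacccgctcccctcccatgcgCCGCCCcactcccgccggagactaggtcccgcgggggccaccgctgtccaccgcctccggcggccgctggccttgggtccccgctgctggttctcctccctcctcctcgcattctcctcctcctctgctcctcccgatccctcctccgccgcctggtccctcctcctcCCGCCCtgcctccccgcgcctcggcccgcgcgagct
ERBB2, chr17:39687844-39688093, plus strand: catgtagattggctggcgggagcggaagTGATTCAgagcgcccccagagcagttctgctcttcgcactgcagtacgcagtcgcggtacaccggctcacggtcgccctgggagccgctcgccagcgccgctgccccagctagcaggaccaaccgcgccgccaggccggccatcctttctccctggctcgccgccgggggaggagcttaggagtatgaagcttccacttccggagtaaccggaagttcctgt
HBEGF, chr5:140346604-140346853, minus strand: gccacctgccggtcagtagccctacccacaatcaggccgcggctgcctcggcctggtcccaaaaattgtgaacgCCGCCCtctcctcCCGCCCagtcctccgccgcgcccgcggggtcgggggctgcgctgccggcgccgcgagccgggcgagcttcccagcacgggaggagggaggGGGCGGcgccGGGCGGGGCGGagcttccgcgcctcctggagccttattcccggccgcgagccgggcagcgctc

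The EGFR window shown holds GC boxes that begin 204 and 36 bases before the start site, and the HBEGF window holds 5, of which the pair nearest the start overlaps. The ERBB2 window has no GC box and a single AP-1 match that begins 222 bases before the start. That RefSeq start, at 39688094, lies within the gene as annotated by GENCODE, which begins at 39687914. Most of the ERBB2 window shown is therefore inside the annotated gene, and other starts of ERBB2 were not searched. Searched windows ran 50 bases past the start, and of all 35116 such RefSeq windows 45.0% held a GC box, 7.71% an AP-1 motif and 1.77% an octamer. RefSeq promoters were found for 9 of the 10 genes, in 11 entries, and none held the octamer; the entry not found was that of ERBB3. A second RefSeq start of EGFR, at 55109839 within the gene, has a window that is not shown, with no GC box and with AP-1 matches that begin 232 and 136 bases before it. The GC content of the searched windows was 75.3% for EGFR at the start shown and 42.0% at the other, 60.7% for ERBB2 and 75.0% for HBEGF, against a median of 58.7% over all windows. A match is only a match of letters, and no binding was measured here.

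Among the receptors, EGFR fell and ERBB2 rose by more than 2-fold in all 3 libraries with a targeting guide. EGFR (ENSG00000146648, chromosome 7, 55019021 to 55211628, plus strand, GENCODE release 29 on GRCh38) had a normalized count of 6803 in the control, 3370 with COLCA2 guide 1, 3155 with COLCA2 guide 2 and 2615 with the POU2F3 guide. The control stood alone at the top and the other 3 lay close together, the POU2F3 guide library lowest. EGFR was at 49.5% (47.5% to 51.7%) of the control level with COLCA2 guide 1, 46.4% (44.4% to 48.5%) with guide 2 and 38.4% (36.8% to 40.1%) with the POU2F3 guide. The mean log2 ratio with the COLCA2 guides was -1.06 ± 0.067 (SD, n = 2), and the log2 ratio with the POU2F3 guide was -1.38. With COLCA2 guide 1 the log2 ratio of -1.01 lay just past the 2-fold limit, and its counting interval included a smaller change. In bulk RNA, fewer cells with the transcript and less of it per cell cannot be told apart. EGFR-AS1, which overlaps EGFR exons by 186 bp on the opposite strand, was not analysed here.

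Of all genes tested, 2.02% were at least 2-fold lower with both COLCA2 guides and 3.05% with the POU2F3 guide. Among the 5908 genes with a mean of at least 1000, a level chosen after the values were seen, these shares were 0.779% and 0.999%. In all, 2.68% of genes had a lower mean ratio than EGFR with the COLCA2 guides, and 1.58% had a lower ratio with the POU2F3 guide.

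ERBB2 (ENSG00000141736, chromosome 17, 39687914 to 39730426, plus strand) moved the other way. Its normalized count was 1093 in the control, 2448 with COLCA2 guide 1, 2634 with COLCA2 guide 2 and 2501 with the POU2F3 guide. The 3 targeted libraries differed from each other by far less than they differed from the control. ERBB2 was 2.24-fold (2.09 to 2.40), 2.41-fold (2.24 to 2.59) and 2.29-fold (2.14 to 2.45) the control level, and the mean log2 ratio with the COLCA2 guides was 1.21 ± 0.075 (SD, n = 2) beside 1.19 with the POU2F3 guide. Rises of that kind were more common than falls: 5.79% of all genes were at least 2-fold higher with both COLCA2 guides and 6.73% with the POU2F3 guide, and among genes with a mean of at least 1000 the shares were 3.57% and 3.77%. Exons of ERBB2 overlap those of MIEN1 on the opposite strand by 571 bp and those of PGAP3 by 194 bp, and the use of the strand in counting is not stated. MIEN1 had 1256 in the control, 1253 and 1289 with the COLCA2 guides and 1065 with the POU2F3 guide, so it was not higher along with ERBB2 by 2-fold. PGAP3 had 351, 393, 455 and 472.

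ERBB3 and ERBB4, the neuregulin receptors, stayed within 2-fold of the control. ERBB3 (ENSG00000065361, chromosome 12, 56076799 to 56103505) had a normalized count of 2128 in the control, 1831 and 1916 with COLCA2 guides 1 and 2, and 1599 with the POU2F3 guide. The control value was the highest of the 4, and the log2 ratios were -0.18 ± 0.046 (SD, n = 2) with the COLCA2 guides and -0.41 with the POU2F3 guide. ERBB4 (ENSG00000178568, chromosome 2, 211375717 to 212538841) had 418 in the control and 583, 532 and 614 in the same order. Here the control value was the lowest, with log2 ratios of 0.41 ± 0.093 (SD, n = 2) and 0.55. With the COLCA2 guides both shifts were larger than the SD between the guides, which rests on n = 2 and is a weak measure of error. The POU2F3 guide and the control have no such spread. In every library with a targeting guide both shifts exceeded counting error. Shifts of any size in which the control lies outside the other 3 libraries were common, however: it was highest at 35.3% of all genes and lowest at 34.4%.

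**Figure D1:**
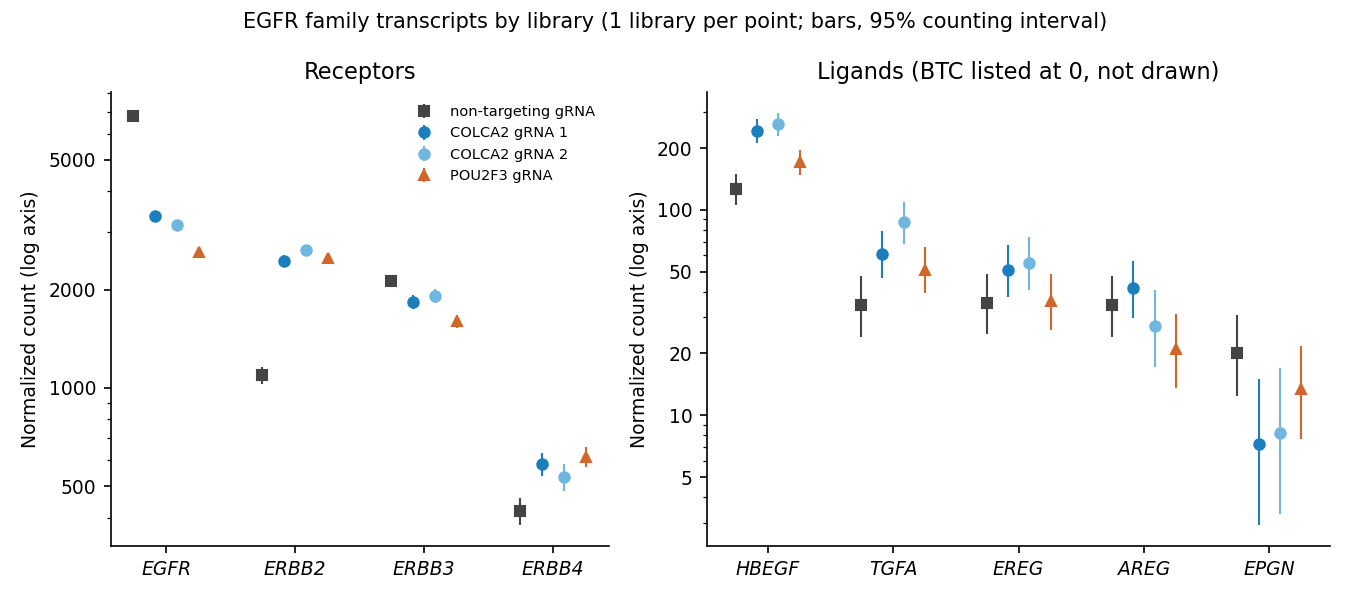
Normalized counts (log axis) of the 4 receptors, left, and 5 ligands, right, in each library, 1 point per library, with 95% counting intervals as bars. EGFR is highest in the control at 6803 and ERBB2 lowest there at 1093, while BTC was listed at 0 in all 4 libraries and is not drawn.

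The recovered reads of all genes were also tested with edgeR (quasi-likelihood, Benjamini-Hochberg adjustment). It has 1 residual degree of freedom, the difference between the COLCA2 guides, and draws the variance of each gene toward a trend over all genes tested. Its p-values thus rest largely on the spread of other genes between these samples, not on the guide difference of 1 gene alone. For the POU2F3 guide it compares libraries, not conditions. The control too is 1 library with no spread of its own. With the COLCA2 guides a difference of condition can therefore not be told from one of that library. For the COLCA2 guides the adjusted p of edgeR's test was 0.00043 for EGFR, lower in 2 of 2 libraries, and 0.00053 for ERBB2, higher in 2 of 2. For the POU2F3 guide edgeR's adjusted p was 0.00045 for EGFR and 0.0011 for ERBB2. With the COLCA2 guides, ERBB3 and ERBB4 had adjusted p-values of 0.25 and 0.10 by edgeR, and with the POU2F3 guide 0.069 and 0.076. At an adjusted p under 0.05 edgeR called 3 of the 8 genes with the COLCA2 guides (EGFR, ERBB2 and HBEGF), where it called 7.51% of all genes lower and 11.4% higher. With the POU2F3 guide it called EGFR and ERBB2, where it called 3.98% lower and 8.45% higher. No gene of the family was 2-fold apart between the COLCA2 guides, as 2.22% of all genes were.

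Because EGFR and ERBB2 were counted in the same library, their ratio does not depend on how libraries were scaled. The ratio of EGFR to ERBB2 per kb of transcript was 2.88 (2.70 to 3.07) in the control, 0.637 (0.604 to 0.672) with COLCA2 guide 1, 0.554 (0.524 to 0.587) with COLCA2 guide 2 and 0.484 (0.460 to 0.509) with the POU2F3 guide. The control therefore stood far above the other 3, whose intervals lay below 1. The level of this ratio, though not its change between libraries, depends on the length used: the principal EGFR transcript is 9821 nt long with 3630 nt of coding sequence, and that of ERBB2 is 4545 nt with 3765 nt. Per kb of coding sequence the ratio was 6.45 in the control and 1.43, 1.24 and 1.08 in the others, all above 1. Which of the receptors was the more abundant after targeting can thus not be settled from these counts.

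Summed per kb of transcript, the 4 receptors gave 1327 normalized counts per kb in the control, 1239 and 1268 with COLCA2 guides 1 and 2 and 1137 with the POU2F3 guide. EGFR made up 52.2% of that sum in the control and 27.7%, 25.3% and 23.4% in the other libraries, while ERBB2 went from 18.1% to 43.5%, 45.7% and 48.4%. ERBB3 kept a share between 23.8% and 27.1%, and ERBB4 held 2.60% to 4.45%. Per kb of transcript the control had the order EGFR (693 normalized counts per kb), ERBB3 (359), ERBB2 (241) and ERBB4 (34.5). With the POU2F3 guide the order was ERBB2 (550), ERBB3 (270), EGFR (266) and ERBB4 (50.6), in which EGFR and ERBB3 did not differ beyond counting error. Per kb of coding sequence EGFR stayed first in every library, with a share of 66.9% in the control and 37.2% to 42.6% in the others.

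**Figure D2:**
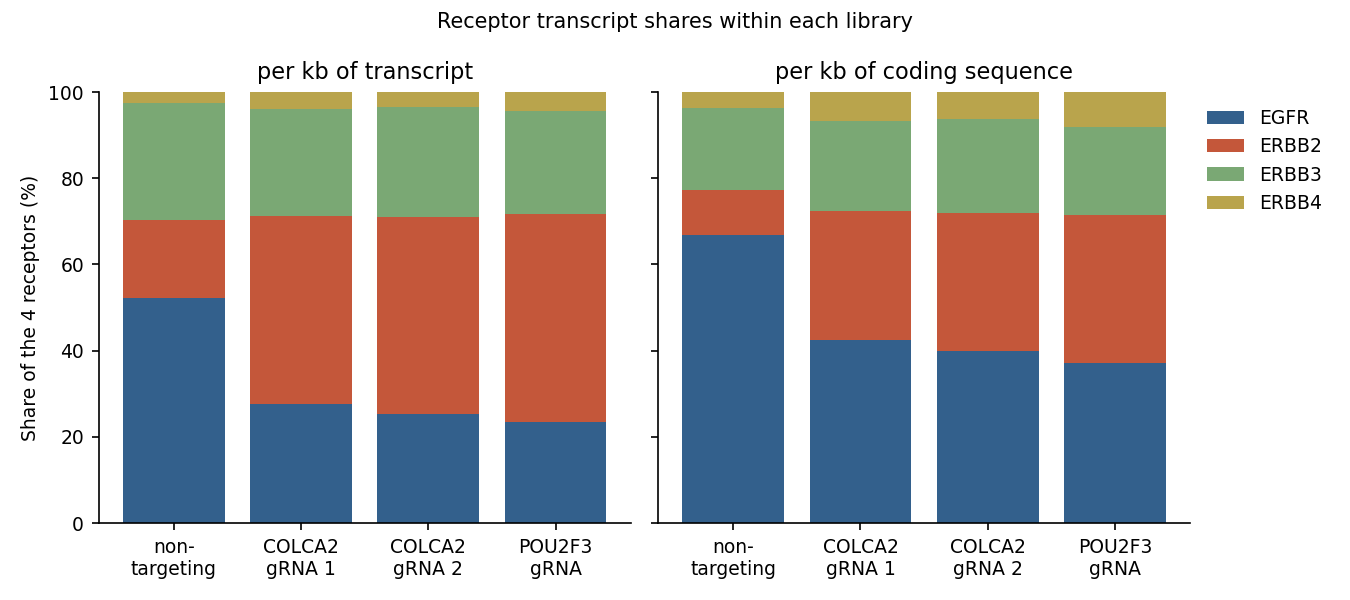
Share of each receptor in the sum of the 4, in percent, per library, with levels per kb of the principal transcript (left) and per kb of its coding sequence (right). EGFR takes the largest share in the control by both lengths, and the ERBB2 share is larger in the 3 libraries with a targeting guide.

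The ligands were less abundant than EGFR, ERBB2 and ERBB3. Per kb of transcript the most abundant, HBEGF, had 52.8 normalized counts per kb in the control, against 693 for EGFR and 34.5 for ERBB4, the one receptor below it. No ligand passed the 2-fold limit in the same direction with both COLCA2 guides among those above the expression minimum, and none did with the POU2F3 guide. Only 4 of the 6 were above that minimum. Of all genes, 2.02% were lower and 5.79% higher with both COLCA2 guides, and 3.05% and 6.73% with the POU2F3 guide. The lack of a call among 4 genes therefore says little. HBEGF was first among the 6 ligands in every library, by transcript length and by coding length.

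HBEGF (ENSG00000113070, chromosome 5, 140332843 to 140346631, minus strand), whose precursor also serves as the diphtheria toxin receptor, had a normalized count of 126 in the control, 243 with COLCA2 guide 1, 261 with COLCA2 guide 2 and 171 with the POU2F3 guide. All 3 targeted libraries were above the control, the COLCA2 pair furthest. HBEGF was 1.92-fold (1.55 to 2.40) and 2.07-fold (1.66 to 2.59) the control level with COLCA2 guides 1 and 2, and 1.36-fold (1.09 to 1.70) with the POU2F3 guide. Its mean log2 ratio with the COLCA2 guides was 0.99 ± 0.075 (SD, n = 2), with an adjusted p of 0.026 by edgeR and both libraries higher. With the POU2F3 guide the log2 ratio was 0.44 and edgeR's adjusted p was 0.33.

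TGFA (ENSG00000163235, chromosome 2, 70447280 to 70554193, minus strand) had 36, 59, 74 and 61 reads in the control, COLCA2 guide 1, COLCA2 guide 2 and the POU2F3 guide libraries, or normalized counts of 34.4, 61.2, 87.0 and 51.2. It was higher than the control in all 3, by 1.78-fold (1.16 to 2.77) and 2.53-fold (1.68 to 3.88) with the COLCA2 guides and 1.49-fold (0.971 to 2.32) with the POU2F3 guide. The guides differed from each other, so that the mean log2 ratio of 1.06 had an SD of 0.35 (n = 2), and only guide 2 passed the 2-fold limit. By edgeR its adjusted p was 0.13 with the COLCA2 guides.

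**Figure D3:**
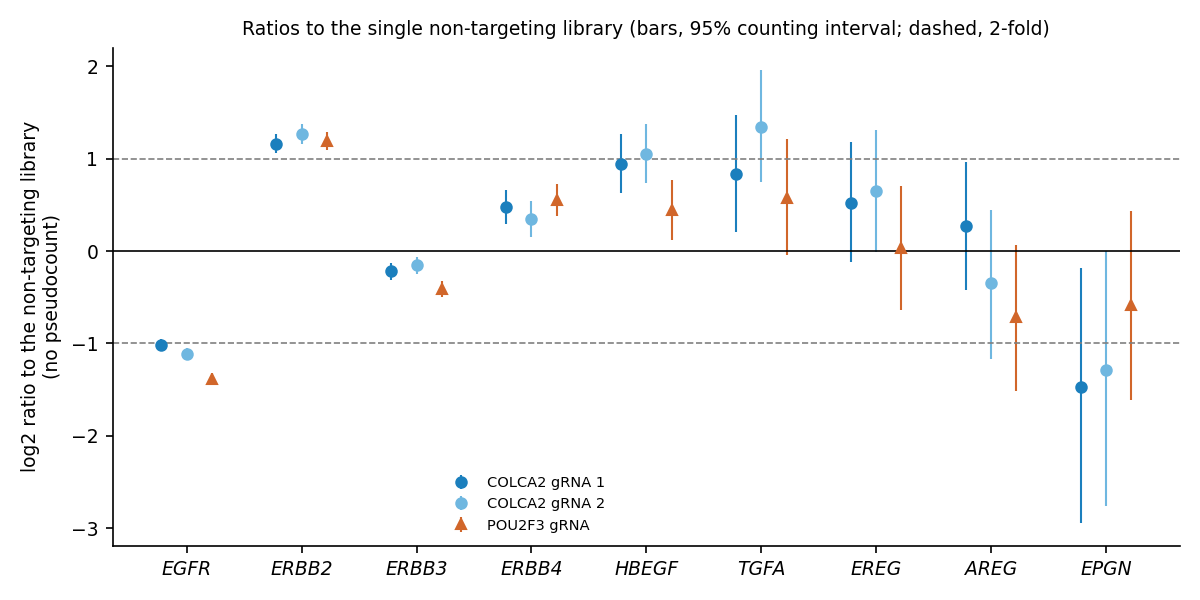
Log2 ratio of 9 genes of the family to the single control library, without a pseudocount, for each library with a targeting guide; bars are 95% counting intervals and dashed lines mark 2-fold. EGFR lies below and ERBB2 above the dashed lines in all 3 libraries, and the intervals of AREG cross 0 in each.

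The other ligand genes AREG, EREG, EPGN and BTC lie together on chromosome 4, within 486214 bp and with no other protein-coding gene of GENCODE release 29 between them, and they had few or no reads. EREG (74365143 to 74388751, plus strand) had 37 reads in the control, 49 and 47 with COLCA2 guides 1 and 2 and 43 with the POU2F3 guide, and every interval of its ratio to the control included 1. AREG (74445134 to 74455009, plus strand) had 36, 40, 23 and 25 reads in the same order. Its log2 ratio was 0.26 with COLCA2 guide 1 and -0.33 with guide 2, so the guides pointed in opposite directions, and -0.69 with the POU2F3 guide, where the level was 61.0% (35.1% to 105%) of the control. None of these differences was detectable beyond counting error at this depth.

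EPGN (74308473 to 74315307, plus strand) had 21 reads in the control, 7 with each COLCA2 guide and 16 with the POU2F3 guide. With the COLCA2 guides it was at 36.2% (13.0% to 88.4%) and 41.1% (14.7% to 100.2%) of the control, a mean log2 ratio of -1.27 ± 0.11 (SD, n = 2), from counts too low for the expression minimum. BTC (74744759 to 74794686, minus strand) was listed at 0 in all 4 libraries, which allows up to 3 reads in each.

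**Figure D4:**
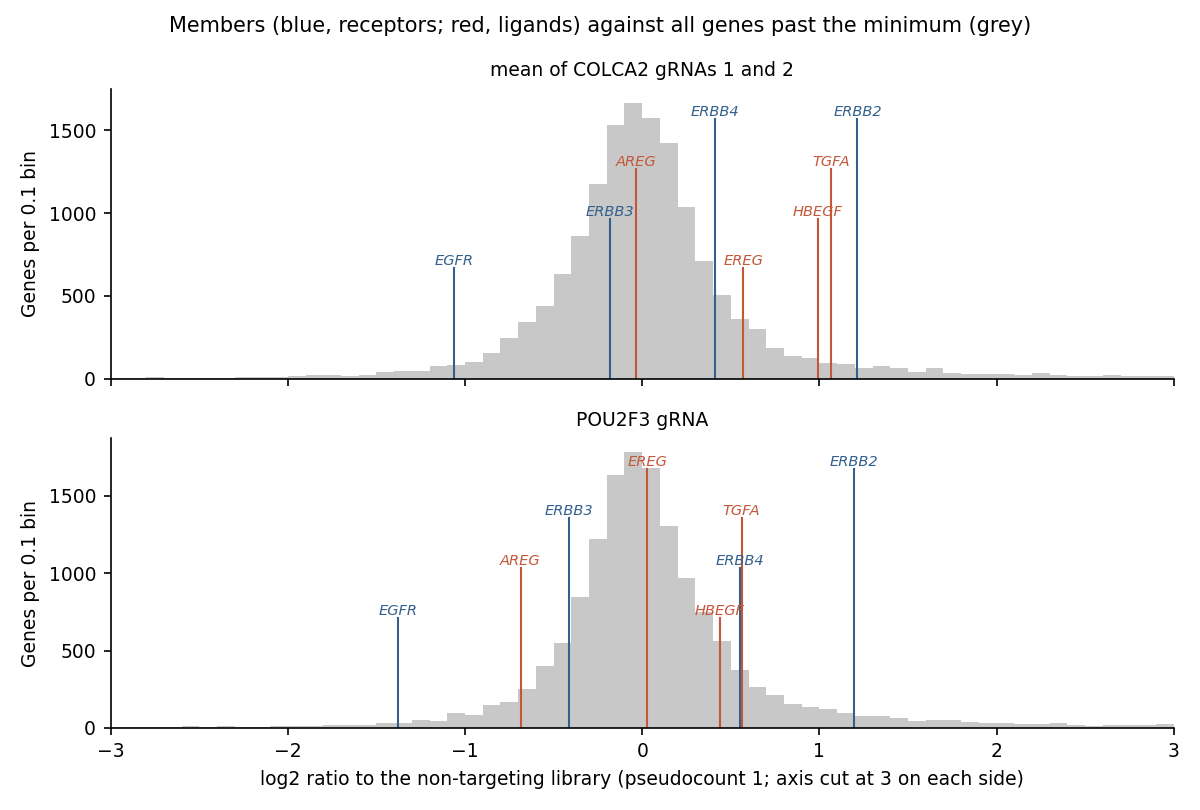
Number of genes per 0.1 bin of the log2 ratio to the control (grey) for the mean of the COLCA2 guides (top) and the POU2F3 guide (bottom), with the 8 genes of the family above the expression minimum as labelled lines whose heights have no meaning. EGFR lies in the lower tail, with 2.68% and 1.58% of genes below it, and ERBB2 in the upper tail.

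Over the 8 genes above the minimum the median log2 ratio was 0.49 with the mean of the COLCA2 guides and 0.23 with the POU2F3 guide, beside -0.0086 and -0.0037 over all genes. In each comparison 1 passed the limit downward and 1 upward, EGFR and ERBB2 both times. Split by role, the 4 ligands above the minimum had medians of 0.78 and 0.23, and the 4 receptors 0.11 and 0.071. The control was the lowest of the 4 libraries for ERBB2, ERBB4, EREG, TGFA and HBEGF, and the highest for EGFR and ERBB3. Over all genes it was lowest at 34.4% and highest at 35.3%. With the POU2F3 guide the counting intervals of EREG and TGFA included no change.

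The POU2F3 guide library was also set directly against the COLCA2 libraries, which leaves the shared control out. None of the 8 genes was 2-fold from both COLCA2 libraries, and 0.924% of all genes were lower and 0.442% higher by that rule. EGFR with the POU2F3 guide was at 77.6% (73.8% to 81.5%) of its level with COLCA2 guide 1 and 82.9% (78.7% to 87.3%) of that with guide 2. HBEGF was at 70.6% (58.2% to 85.5%) and 65.6% (54.0% to 79.7%), and ERBB3 at 87.3% (81.8% to 93.2%) and 83.5% (78.1% to 89.2%). These 3 genes were below both guides beyond counting error. By point value, AREG, EREG and TGFA were below both guides as well, which makes 6 of 8, where 38.9% of all genes were below both; ERBB4 was above both, as were 35.6% of all genes, and ERBB2 lay between them. ERBB2 was at 102% (96.8% to 108%) and 94.9% (89.9% to 100.3%) of the guides' levels. In this direct comparison edgeR called 0 of the 8 genes at an adjusted p under 0.05 (0.234% of all genes lower, 0.107% higher) and 2, EGFR and HBEGF, at an unadjusted p under 0.05, with adjusted p-values of 0.24 and 0.35.

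The remaining ligands of the receptors, EGF and the neuregulins, were taken from a list. NRG3, a neuregulin that binds ERBB4, had a normalized count of 430 in the control, 149 with COLCA2 guide 1, 141 with COLCA2 guide 2 and 92.3 with the POU2F3 guide. The control stood well apart, and NRG3 fell by 1.56 ± 0.057 on the log2 scale with the COLCA2 guides (SD, n = 2) and by 2.21 with the POU2F3 guide, with edgeR adjusted p-values of 0.0029 and 0.0022. NRG1, which binds ERBB3 and ERBB4, had 140, 336, 426 and 267 in the same order. It rose with both COLCA2 guides, with a mean log2 ratio of 1.42 ± 0.24 (SD, n = 2) and an edgeR adjusted p of 0.0067, and its log2 ratio with the POU2F3 guide was 0.92. EGF, the founding ligand of EGFR, had 166, 322, 251 and 387, and passed the 2-fold limit with the POU2F3 guide only, at a log2 ratio of 1.21. NRG2 had 170, 116, 82.3 and 86.5, and its log2 ratio was -0.55 with COLCA2 guide 1, -1.04 with guide 2 and -0.97 with the POU2F3 guide. NRG4 had 36, 24, 27 and 19 reads, and was 2-fold lower with the POU2F3 guide alone, at 46.4% (25.1% to 83.0%) of the control.

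NRG3 was the ligand with the lowest ratio in all 3 libraries among those above the minimum, so its start region is shown. Both RefSeq windows of NRG3 hold the same 1 octamer, on the minus strand. It begins 118 bases before the second of its start sites and just past the first. The windows found for EGF, NRG2 and NRG4 held no octamer, although NRG2 and NRG4 were also lower with the POU2F3 guide. Any part of the octamer in the fall of NRG3 was not tested. The window printed is 28 bases long and the capitals mark the octamer.
NRG3, chr10:81875186-81875213, plus strand, GRCh38.p14: cagggagcggATTTGCATgcggccgccg

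Genes around the receptors were described by 5 lists with 64 genes in all, every one of which passed the expression minimum. With both COLCA2 guides 5 of the 64 (7.81%) were lower by 2-fold or more and 6 (9.38%) higher, beside 2.02% and 5.79% of all genes. With the POU2F3 guide 4 (6.25%) were lower and 7 (10.9%) higher, beside 3.05% and 6.73%. Their median log2 ratio was 0.024 for the COLCA2 guides and 0.046 with the POU2F3 guide.

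None of the 6 ligand-shedding genes, which include the metalloprotease genes ADAM10 and ADAM17 and the iRhom genes RHBDF1 and RHBDF2, was 2-fold from the control. ADAM17, the main sheddase of several EGFR ligands, had a normalized count of 1144 in the control, 1304 and 1345 with the COLCA2 guides and 1315 with the POU2F3 guide. Of the 26 signal relay genes, STAT3 rose in both comparisons and PIK3R1 rose with the POU2F3 guide. STAT3, a transcription factor activated by cytokine and growth factor receptors, had 2104 in the control, 4351 and 4877 with the COLCA2 guides and 4541 with the POU2F3 guide. PIK3R1, a regulatory subunit of PI3-kinase, had 811, 1250, 1504 and 1993. The adaptor GRB2 was nearly level, at 3763 in the control and 3781 to 3870 in the others. Other relay genes were lower by less than 2-fold. SOS1 was at 62.1% and 51.0% of the control with the COLCA2 guides and 73.0% with the POU2F3 guide, and PLCG1 at 69.0%, 69.9% and 82.6%. Of the 26, 12 and 15 had a log2 ratio above 0 with COLCA2 guides 1 and 2, and 15 with the POU2F3 guide.

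Of the 12 genes listed for receptor down-regulation, LRIG3 alone (8.33%) passed the limit, upward in both comparisons, beside 5.79% and 6.73% of all genes. Whether LRIG3 itself dampens the receptors was not tested. LRIG3, a membrane protein related to the EGFR inhibitor LRIG1, had 186 in the control, 412 and 388 with the COLCA2 guides and 569 with the POU2F3 guide. LRIG1 itself had 1627, 1587, 1539 and 1516. ERRFI1, whose product binds and inhibits the EGFR kinase, had 232, 410, 483 and 316 and did not reach 2-fold with both guides.

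Of the 15 genes known to be induced by ERK signalling, or to feed back on it, some fell and others rose. With both COLCA2 guides SPRY1, DUSP6, EGR1 and ETV4 fell and DUSP5, FOSL1 and IER3 rose. These are 26.7% and 20% of the list, beside 2.02% and 5.79% of all genes. With the POU2F3 guide SPRY1 and ETV4 fell (13.3%) and the same 3 genes rose (20%), beside 3.05% and 6.73% of all genes. FOSL1, which encodes the AP-1 subunit FRA1, had a normalized count of 29.6 in the control, 424 and 430 with the COLCA2 guides and 220 with the POU2F3 guide. ETV4, an ETS transcription factor, had 1689, 548, 400 and 262. DUSP6 and DUSP5, both ERK phosphatases, went in opposite directions: DUSP6 had 482, 217, 207 and 273, and DUSP5 had 84.0, 253, 270 and 202. SPRY1, an inhibitor of receptor tyrosine kinase signalling, had 1154, 496, 443 and 430. EGR1, an immediate early transcription factor, had 15532, 5864 and 5272 with a POU2F3 guide value of 11067, where it was not 2-fold below the control. FOS, another AP-1 subunit gene, had 2791, 2125, 2367 and 4875, and was the one listed gene at least 2-fold higher with the POU2F3 guide than with both COLCA2 guides. IER3, summed over 3 annotated rows, had 1592, 5254, 5211 and 5472. The median of the list was -0.044 with the COLCA2 guides and 0.030 with the POU2F3 guide, both close to 0.

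**Figure D5:**
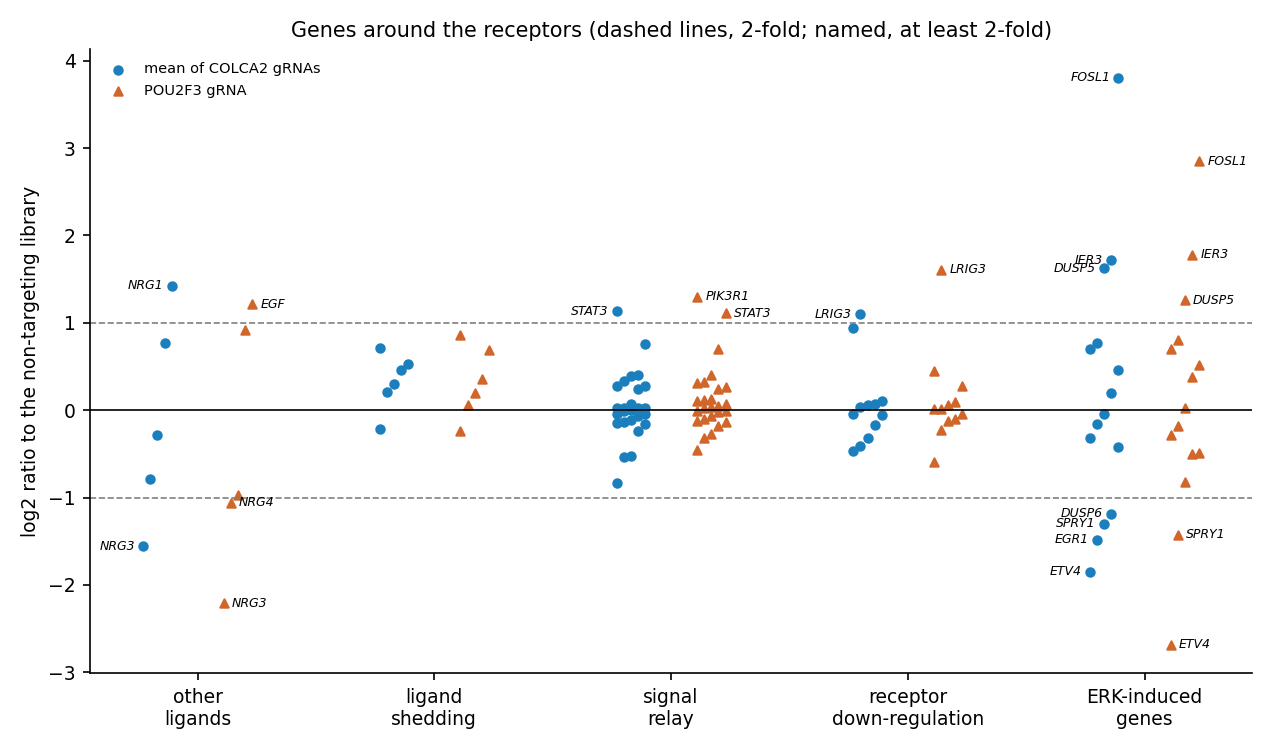
Log2 ratio to the control of each gene in the 5 lists, for the mean of the COLCA2 guides (circles) and the POU2F3 guide (triangles), with 2-fold marked by dashed lines and genes past it named. The ERK-induced genes spread to both sides, from ETV4 at -1.85 and -2.68 to FOSL1 at 3.81 and 2.85, while the shedding genes stay within 2-fold.

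The genes whose ratios in the 3 libraries lay nearest to those of EGFR, by Euclidean distance among 12158 genes with a mean of at least 100, were DCLK2 and CHD7. Their distances were 0.112 and 0.113 on the log2 scale. DCLK2 had 2094 in the control, 1026 and 901 with the COLCA2 guides and 818 with the POU2F3 guide. Nearest to HBEGF were LARP6, PARM1 and INPP4B, at distances of 0.056, 0.083 and 0.111. These are likenesses over 3 ratios that share 1 control.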

How the data were processed

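Per the labels' protocols, TRIzol-extracted, DNase-treated NCI-H1048 RNA was poly(A)-selected. Per the submitters' processing notes, Salmon, DESeq2 and hg38 were used; roles, annotation and use of the strand are not given in the sources used here. The deposited signal is a linear normalized count per gene, per the file headers. In each library 100% of values were whole multiples of 1 step (tolerance 0.1), so whole counts were recovered, which are called reads here. They may be rounded estimates from Salmon. The counting intervals leave out any error in assigning reads to genes. Rows of 1 symbol were summed (38145 rows, 35979 symbols). Log2 ratios used a pseudocount of 1, an expression minimum of 20 and a 2-fold limit. Lengths and positions came from GENCODE release 29, matched by gene identifier, and promoters from RefSeq. edgeR 4.0.16 (3 groups, TMM) was an added test on the recovered reads; over all genes it called 1122 genes lower and 1709 higher with the COLCA2 guides, and with the POU2F3 guide 595 and 1263. The computations were tested on simulated data. Genes named are the family, its other ligands, listed genes 2-fold changed that reached 100 in the higher library, and the 3 nearest to the most abundant receptor and ligand, of which 1 is not reported here; ADAM17, GRB2, LRIG1, ERRFI1 and the strand neighbours of ERBB2 were named after their values were seen. Members and lists were chosen with earlier results of these data known. Alternatives were other scalings, pseudocounts, minimums, fold limits, rows per symbol, edgeR and each COLCA2 guide left out.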

Additional observations from a re-analysis of the deposited data

How the results depend on the processing

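No paired analysis was possible because the control and POU2F3 groups held 1 library each. Of the 10 genes of the family, with both COLCA2 guides 1 was lower and 1 higher, and with the POU2F3 guide also 1 and 1. A 4-fold limit gave 0 in each of these 4 counts. A 1.5-fold limit gave 3 higher with both COLCA2 guides and 2 lower with the POU2F3 guide. Without the expression minimum 2 were lower with both COLCA2 guides, since EPGN entered. edgeR called 2 higher with the COLCA2 guides, since HBEGF entered. Leaving out a COLCA2 guide gave 1 to 3 higher genes, 3 without guide 1, when TGFA and HBEGF entered. Of the 64 surrounding genes, a 4-fold limit left 0 lower and 1 higher with the COLCA2 guides, and 2 and 1 with the POU2F3 guide. At 1.5-fold 11 were higher with the COLCA2 guides, and 7 lower and 13 higher with the POU2F3 guide. edgeR called 8 of the 64 lower and 12 higher with the COLCA2 guides, where it called 7.51% and 11.4% of all genes. For the 1.5-fold and 4-fold limits and for a guide left out, shares of all genes are not given. Those counts, of the family and of the 64, therefore show only how the calls move with the setting. The log2 ratio of EGFR ranged from -1.13 to -1.01 with the COLCA2 guides and from -1.41 to -1.37 with the POU2F3 guide over the alternatives, and that of ERBB2 from 1.15 to 1.27 and from 1.16 to 1.20. Of 220 recomputed ratios 4 changed sign, all of uncalled ratios of AREG, EREG and ERBB2; that of AREG with the COLCA2 guides was 0.26 without guide 2. Scaling to equal totals shifted the all-gene median by -0.069, the most of any scaling. Counts under 100 reads limit AREG, EREG, TGFA and EPGN.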
